A study of Mus musculus with 4 samples.

Results

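Members of the CC chemokine family were followed in mouse colonic epithelium during chemically induced colitis: Ccl2, Ccl3, Ccl4, Ccl6, Ccl7, Ccl8 and Ccl9, which draw monocytes and other leukocytes, and Ccl20, Ccl25 and Ccl28, which the gut epithelium makes in health. They were taken by the gene symbol of the platform annotation, which gave 15 probe sets for 10 genes among the 18193 genes named by a single symbol on the array. The series holds 4 Affymetrix Mouse430_2 arrays of intestinal epithelial cells from C57BL/6 mice, 1 array for each genotype label: Bmi1ΔIEC (loss of Bmi1 in intestinal epithelial cells), Mel18ΔIEC (loss of Mel18, gene symbol Pcgf2, in the same cells), DKO (Bmi1ΔIEC Mel18ΔIEC, loss of both) and WT. Bmi1 and Mel18 are related subunits of Polycomb repressive complex 1, which keeps sets of genes silent through chromatin. All 4 groups had the same treatment, so WT is an inflamed and carcinogen-exposed control: sex-matched animals of 6 to 8 weeks were given azoxymethane at 10 mg/kg, a colon carcinogen, and 5 days later drank 3.5% dextran sulfate sodium, which injures the epithelium, for 5 days. On day 12 the opened colon was shaken in 5 mM EDTA and the cells that came off were collected, with no sorting step in the labels. The labels give neither the Cre driver of the deletions nor the number of mice behind an array.

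CC chemokines are small secreted proteins that bind G-protein-coupled receptors on leukocytes and guide them along a gradient. In the inflamed colon, ligands of the receptor CCR2 call monocytes from the blood, and these become the macrophages of the lesion, while ligands of CCR1 draw monocytes, neutrophils and T cells. Homeostatic members serve another purpose: CCL20 guides CCR6-bearing lymphocytes and dendritic cells to the epithelium over lymphoid follicles, CCL25 recruits CCR9-bearing T cells mainly to the small intestine, and CCL28 draws CCR10-bearing IgA plasma cells to the colon and other mucosae.

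Each value is the RMA intensity of a probe set on 1 array, and differences are on the log2 scale. There is no replicate, so no difference has an error or a p-value. The 2-fold rule used below calls a gene higher or lower if its 2 values are 2-fold apart or more and the brighter of them is no less than 33.4 intensity units, the median of all probe-set values, here called the floor. A gene with several probe sets was represented by the one with the highest mean. Array medians lay between 32.1 and 34.2 units. Bmi1 was read by 2 probe sets, which gave 334 and 339 units on the Bmi1ΔIEC array, 160 and 135 on the Mel18ΔIEC array and 432 and 399 on the DKO array, against 116 and 88.4 on the WT array. These values go against a loss of the Bmi1 transcript on the arrays labelled for it, and the part of the gene deleted and the place of the probes in it are not given. Pcgf2 lay near the floor, with 33.4 units on Bmi1ΔIEC, 39.8 on Mel18ΔIEC and 32.0 on DKO, against 30.2 on WT, by its brighter probe set. Its other probe set read 12.6, 10.6 and 11.5 units against 9.53 on WT. So the Pcgf2 transcript also read no lower on the arrays labelled for its loss, though such dim values are not exact. "Bmi1ΔIEC", "Mel18ΔIEC" and "DKO" therefore stand for the arrays labelled so. All 19 epithelial markers, such as Epcam at 9819 to 10930 units, reached the floor on all 4 arrays.

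The genes of 3 monocyte chemoattractant proteins (MCP), Ccl2, Ccl7 and Ccl8, were at least 2-fold lower on each of the 3 knockout-labelled arrays than on WT, and Ccl7 differed most. No other chemokine of the 10 was lower by the rule on any of them. Among all genes compared, 2.86% were lower on Bmi1ΔIEC, 2.5% on Mel18ΔIEC and 2.19% on DKO, and 5.76%, 3.15% and 2.13% were higher. Of the homeostatic genes, Ccl28 was higher on the Mel18ΔIEC array, while Ccl20 and Ccl25 stayed within 2-fold of WT throughout. Ccl6 lay above WT on all 3 knockout-labelled arrays at less than 2-fold by its representing probe set.

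Ccl7 encodes MCP-3, a ligand of CCR2 that helps monocytes leave the bone marrow. It read 57.1 units on Bmi1ΔIEC, 34.6 on Mel18ΔIEC and 33.1 on DKO, against 318 on WT. The WT array thus stood alone, and the Mel18ΔIEC and DKO values lay at the floor. The log2 differences from WT were -2.48 on Bmi1ΔIEC and -3.20 on Mel18ΔIEC. With the DKO value set to the floor, Ccl7 was at least 9.53-fold lower on DKO than on WT. The Mel18ΔIEC and DKO sizes are not exact, since those values lay at the floor. On Bmi1ΔIEC, where Ccl7 was above the floor, 49 of the 11934 genes compared lay as low or lower, counting Ccl7 itself.

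Ccl8 encodes MCP-2, which in the mouse signals mainly through CCR8 and is a product of tissue macrophages. Its intensity was 191 on Bmi1ΔIEC, 239 on Mel18ΔIEC and 317 on DKO, against 686 on WT. All 4 values were well above the floor, and every knockout-labelled array lay under WT, with Bmi1ΔIEC lowest and DKO nearest to WT. The log2 differences from WT were -1.84, -1.52 and -1.11. Ccl2 encodes MCP-1, the main CCR2 ligand in inflamed tissue. It lay near the floor, with 31.2 units on Bmi1ΔIEC, 28.3 on Mel18ΔIEC and 38.9 on DKO, against 78.1 on WT. Since the single-knockout values were under the floor, Ccl2 was at least 2.34-fold lower there than on WT. On DKO the Ccl2 difference was -1.01, or 2.01-fold lower, which is just past the 2-fold rule.

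**Figure D1:**
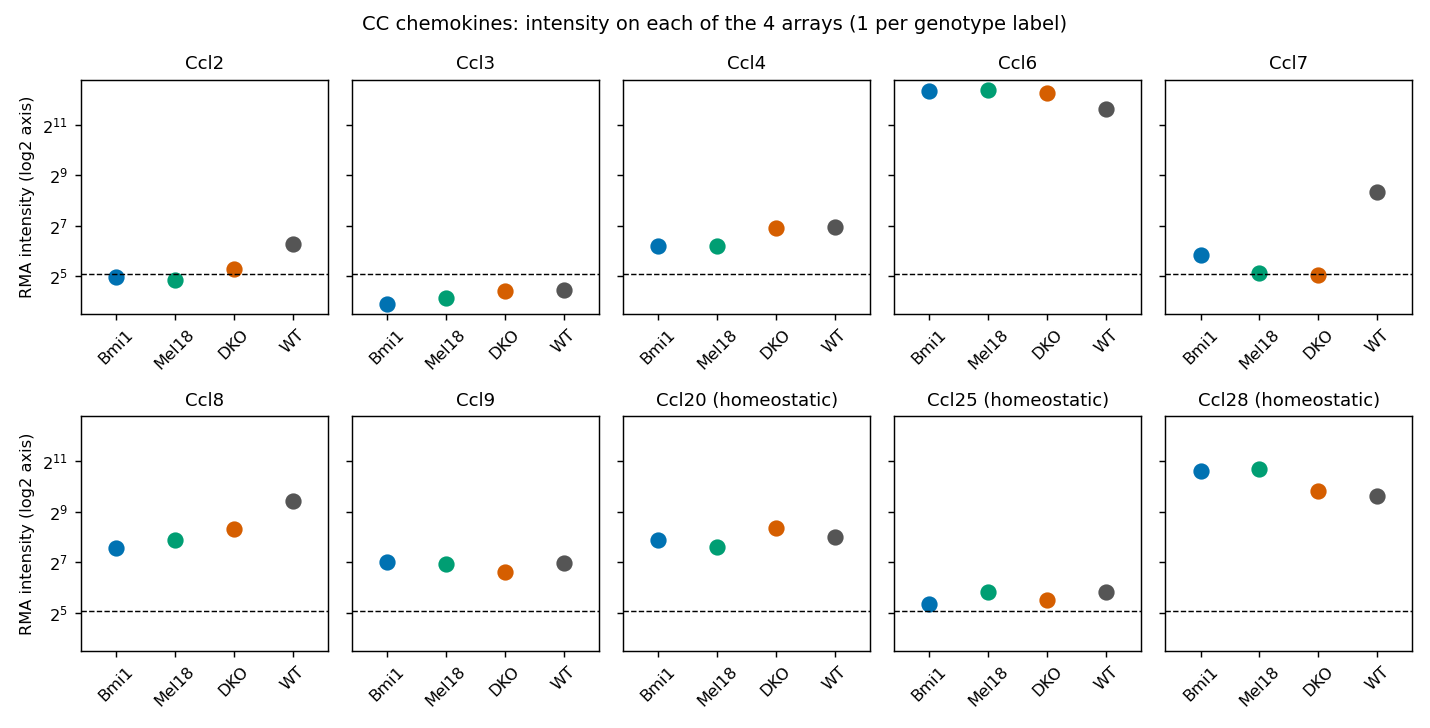
Intensity of the 10 CC chemokine genes (vertical axis, RMA intensity on a log2 axis) on the 4 arrays, left to right Bmi1ΔIEC, Mel18ΔIEC, DKO and WT, with 1 point per array and the floor of 33.4 units as a dashed line. Ccl7 at 318 units and Ccl8 at 686 units are highest on WT, Ccl3 lies under the floor on every array, and Ccl6 is lowest on WT at 3176 units.

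Ccl3 and Ccl4, also called MIP-1α and MIP-1β, are released by activated macrophages and lymphocytes, and Ccl3 binds CCR1. Ccl3 read 15.0 units on Bmi1ΔIEC, 17.4 on Mel18ΔIEC and 21.2 on DKO, against 21.8 on WT, all under the floor, so it entered no comparison. Ccl4 was measurable, with 73.0 units on Bmi1ΔIEC, 73.7 on Mel18ΔIEC and 118 on DKO, against 125 on WT. The single-knockout arrays were nearly equal and lay apart from the other pair of arrays. The Ccl4 differences from WT were -0.77, -0.76 and -0.07, none past the rule.

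Ccl6 and Ccl9 are CCR1 ligands known from rodents and made by myeloid cells. Ccl6 read 5242 units on Bmi1ΔIEC, 5264 on Mel18ΔIEC and 4923 on DKO, against 3176 on WT. The 3 knockout-labelled arrays lay close together and above WT, by 0.72, 0.73 and 0.63 on the log2 scale. Its second probe set gave differences of 1.12, 1.12 and 0.84, with 1711, 1710 and 1402 units against 786 on WT. By that probe set alone Ccl6 would pass the rule on both single-knockout arrays. Ccl9 read 130 units on Bmi1ΔIEC, 122 on Mel18ΔIEC and 98.1 on DKO, against 124 on WT, and its second probe set was lowest on DKO as well, at 26.5 units.

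Ccl20 is induced in epithelium by microbial products and inflammatory cytokines. It read 237 units on Bmi1ΔIEC, 196 on Mel18ΔIEC and 327 on DKO, against 258 on WT. DKO was the highest array and Mel18ΔIEC the lowest, 0.74 apart on the log2 scale, and no pair of arrays was 2-fold apart. Ccl25 lay close above the floor, with 40.4 units on Bmi1ΔIEC, 56.4 on Mel18ΔIEC and 45.7 on DKO, against 56.1 on WT. The second Ccl25 probe set gave another order, with 49.2, 40.9 and 70.7 units against 37.2 on WT, so that DKO was lower than WT by -0.30 in the first and higher by 0.93 in the second. No direction for Ccl25 on DKO can be given from these probe sets.

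By its representing probe set Ccl28 was well above the floor on every array. It read 1566 units on Bmi1ΔIEC, 1662 on Mel18ΔIEC and 902 on DKO, against 783 on WT. The single-knockout arrays lay together above DKO and WT. The difference from WT was 1.09 on Mel18ΔIEC, past the rule, and 1.00 on Bmi1ΔIEC, where the 1.999-fold difference just missed it. On DKO it was 0.20. The other Ccl28 probe sets did not show this: one read 236, 239 and 249 units against 252 on WT, and the other 56.7, 57.8 and 46.4 units against 52.3 on WT. The higher value thus rests on 1 of 3 probe sets. The call was lost when each array was centred on its floor-passing genes.

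**Figure D2:**
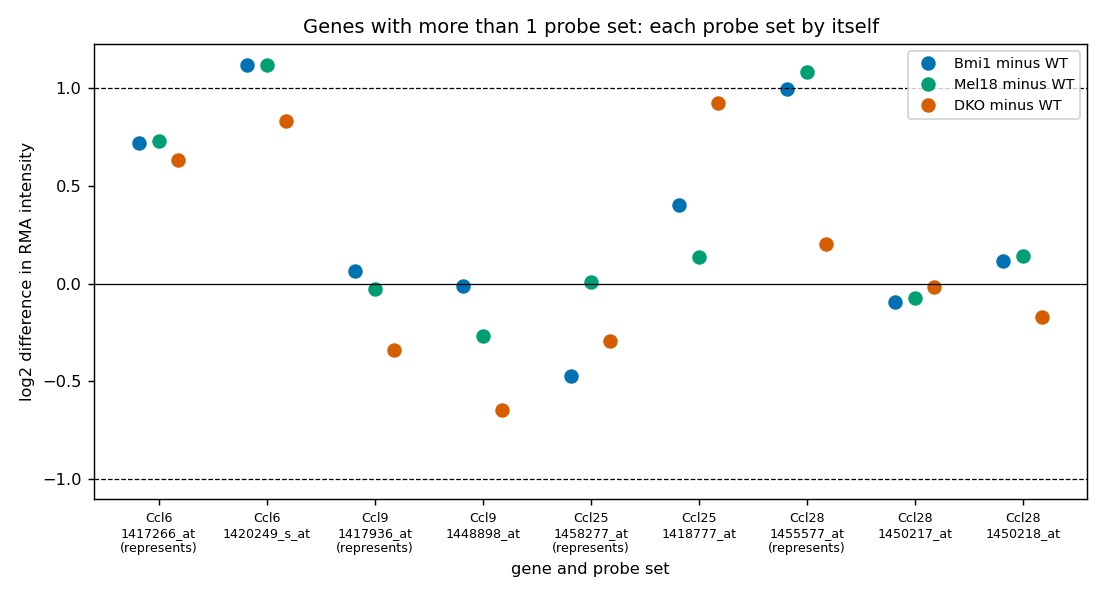
Log2 difference from WT (vertical axis) of each probe set of the 4 genes that have more than 1, with the probe set that represents the gene marked on the horizontal axis and colours for the 3 knockout-labelled arrays. Both Ccl6 probe sets lie above 0 on all 3 arrays, whereas only the representing probe set of the 3 for Ccl28 comes near or past 1, and the 2 Ccl25 probe sets go opposite ways on DKO.

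Of the 10 genes, 7 lie on mouse chromosome 11 in the current gene table of GRCm38.p6. Ccl2 is followed by Ccl7 and then Ccl11, and Ccl8 lies between Ccl12 and Ccl1. In a second block Ccl9, Ccl6, Ccl3 and Ccl4 follow each other in that order. Ccl20 is on chromosome 1, Ccl25 on chromosome 8 and Ccl28 on chromosome 13. The 3 genes lower on every knockout-labelled array are therefore outside the second block. The other chemokine genes next to them, Ccl11, Ccl12 and Ccl1, could not be compared. They stayed under the floor on every array, at 15.5 to 23.0, 11.2 to 14.1 and 13.3 to 19.0 units. In the second block Ccl9 and Ccl6 are direct neighbours, and neither passed the rule by its representing probe set.

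RefSeq promoter sequences of GRCm38.p6 matched 7 of the 10 genes, with Ccl2, Ccl4 and Ccl7 not among them. The windows of 120 bases before the transcript start are shown for the gene lower on every knockout-labelled array (Ccl8), for the direct neighbours Ccl6 and Ccl9 and for 2 homeostatic genes (Ccl20 and Ccl28). Capitals mark the motif matches, which were searched over 250 bases before the start.
Ccl8, chr11:82115065-82115184, plus strand: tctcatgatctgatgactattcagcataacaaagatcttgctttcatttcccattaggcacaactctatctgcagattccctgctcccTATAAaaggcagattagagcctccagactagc
Ccl6, chr11:83593088-83593207, minus strand: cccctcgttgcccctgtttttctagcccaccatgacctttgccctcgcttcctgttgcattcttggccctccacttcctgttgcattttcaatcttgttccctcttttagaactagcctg
Ccl9, chr11:83578637-83578756, minus strand: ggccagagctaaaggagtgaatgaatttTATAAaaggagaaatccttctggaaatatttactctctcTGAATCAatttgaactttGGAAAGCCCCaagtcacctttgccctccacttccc
Ccl20, chr1:83116646-83116765, plus strand: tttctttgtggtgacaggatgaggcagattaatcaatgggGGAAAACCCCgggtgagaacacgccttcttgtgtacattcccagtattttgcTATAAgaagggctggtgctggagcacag
Ccl28, chr13:119623699-119623818, plus strand: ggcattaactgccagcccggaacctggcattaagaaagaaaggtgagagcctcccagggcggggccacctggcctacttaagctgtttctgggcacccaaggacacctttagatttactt

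The letters TATAA on the gene's strand, the core of a TATA box, begin 32 bases before the start of Ccl8 and 28 before that of Ccl20. They were found in 5 of the 8 windows of these genes, since Ccl25 has 2 starts, and in 16.0% of all 32841 windows of the same length. In Ccl3 they began 11 bases before the start, in the second Ccl25 window 16, and in Ccl9 92, 222 and 236. These letters were added to the search after the sequences were seen, so the count is description only. The kappa B consensus bound by NF-kappa B, on either strand, matched in Ccl9 (35 bases before the start) and Ccl20 (80 bases before), and in 7.25% of all windows. The AP-1 motif TGANTCA matched only in Ccl9, at 53 bases before the start, and in 6.75% of all windows, and the interferon response core, GAAA repeated after any 2 bases, in none of the 8, against 2.98% of all. Neither Ccl6 nor Ccl28 held any of these letters in its window. Ccl6 and Ccl9 share a run of 13 bases, gccctccacttcc, beginning 55 bases before the start of Ccl6 and 14 before that of Ccl9. These matches describe letters only.

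Against WT, 9 of the 10 genes could be compared on each knockout-labelled array. On Bmi1ΔIEC 3 of the 9 were lower and 0 higher, where 341 of all 11934 genes were lower (2.86%) and 687 higher (5.76%). On Mel18ΔIEC 3 were lower and 1 higher, beside 296 of 11862 genes lower (2.5%) and 374 higher (3.15%). On DKO 3 were lower and 0 higher, beside 259 of 11853 genes lower (2.19%) and 253 higher (2.13%). The median log2 difference of the 9 chemokines was -0.47 on Bmi1ΔIEC, -0.40 on Mel18ΔIEC and -0.30 on DKO, while that of all genes compared was 0.13, 0.07 and -0.01. The 3 comparisons share the WT array, so a high WT value would lower a gene in all of them. The share of genes past the rule that were higher was 66.8% on Bmi1ΔIEC and 55.8% on Mel18ΔIEC as deposited, and 38.2% and 36.6% with each array centred on its floor-passing genes, where the median gene lay at -0.12 and -0.10. Ccl2, Ccl7 and Ccl8 were lower by the rule on all 3 arrays under each of these scalings, and Ccl6 lay above WT under each.

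**Figure D3:**
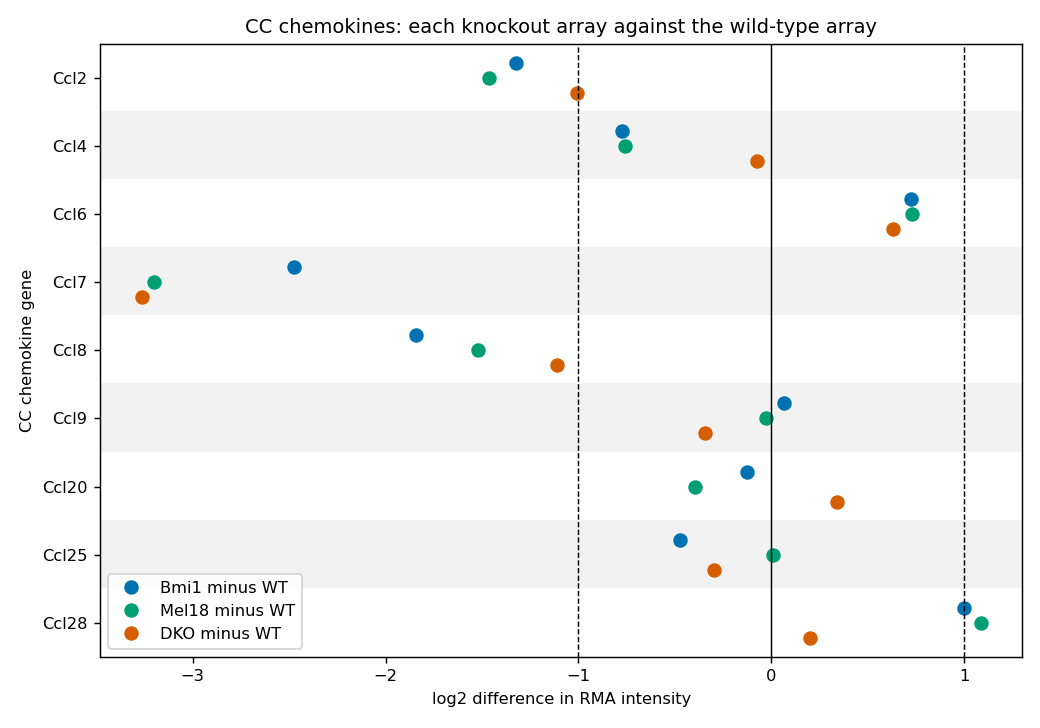
Log2 difference from WT (horizontal axis) of the 9 CC chemokines that reached the floor, with points for Bmi1ΔIEC, Mel18ΔIEC and DKO and dashed lines at the 2-fold rule. Ccl2, Ccl7 and Ccl8 lie left of the lower line on all 3 arrays, and Ccl28 passes the upper line on Mel18ΔIEC at 1.09.

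The monocyte attractants and the homeostatic genes were set against each other by their differences from WT. The 6 monocyte attractants that reached the floor had a median of -1.05 on Bmi1ΔIEC, -1.11 on Mel18ΔIEC and -0.68 on DKO. The 3 homeostatic genes had medians of -0.12, 0.01 and 0.20. The gap between the medians, monocyte attractants minus homeostatic, was -0.92, -1.12 and -0.88. Both groups were mixed: on Bmi1ΔIEC the attractants ran from -2.48 (Ccl7) to 0.72 (Ccl6) and the homeostatic genes from -0.47 (Ccl25) to 1.00 (Ccl28), so the ranges overlapped, as they also did on Mel18ΔIEC and DKO.

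**Figure D4:**
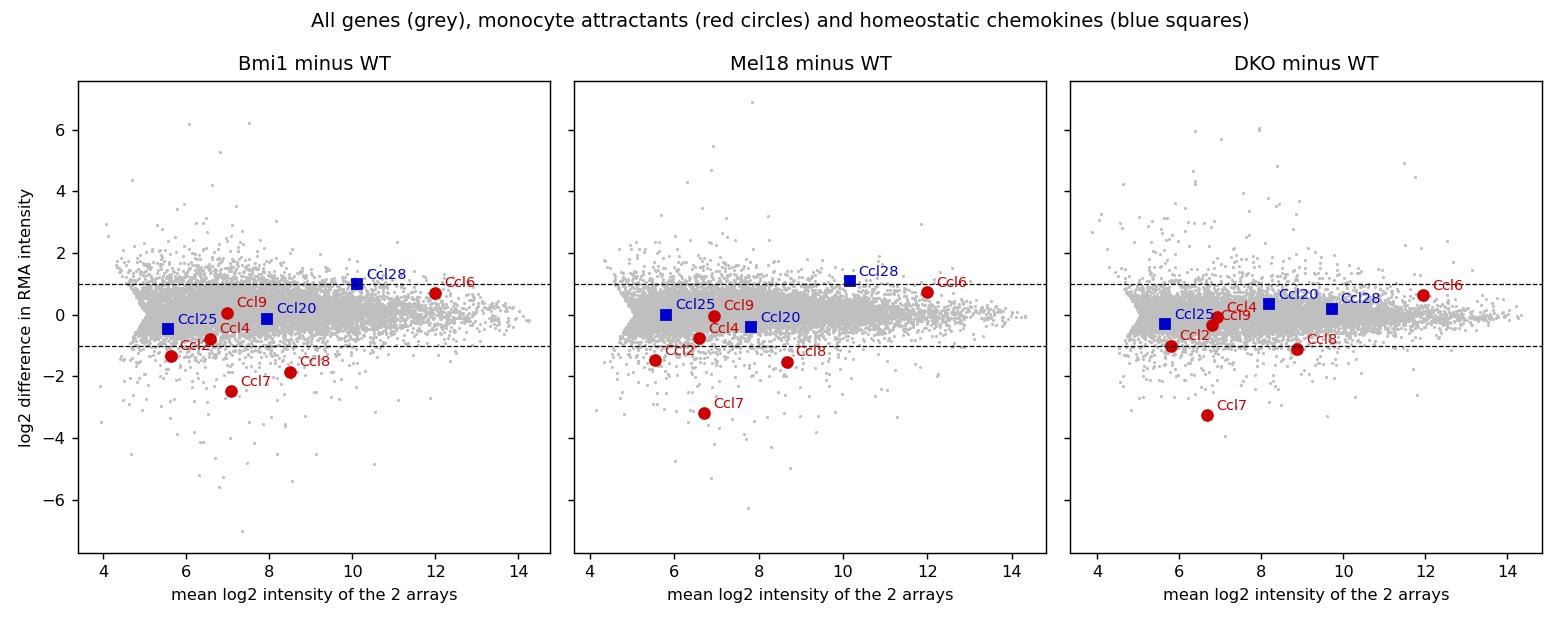
Log2 difference from WT (vertical axis) against mean log2 intensity of the 2 arrays (horizontal axis) for every gene that reached the floor, 1 panel each for Bmi1ΔIEC, Mel18ΔIEC and DKO, with dashed lines at the 2-fold rule. Ccl2, Ccl7 and Ccl8 lie under the lower dashed line in all panels, while Ccl9, Ccl20 and Ccl25 lie within the grey mass between the lines.

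Between knockout-labelled arrays no chemokine passed the rule, although sizes were not smaller throughout. The median size of the log2 difference was 0.46 for DKO against Bmi1ΔIEC and 0.41 for DKO against Mel18ΔIEC, and 0.34 for DKO against WT. Over all genes compared it was 0.38, 0.30 and 0.20 for these pairs. The chemokine median was 0.77 for Bmi1ΔIEC and 0.76 for Mel18ΔIEC against WT, and 0.18 for Mel18ΔIEC against Bmi1ΔIEC. DKO against Bmi1ΔIEC had 0 of 9 past the rule, beside 12.3% of all genes, and DKO against Mel18ΔIEC also 0 of 9, beside 8.37%. Mel18ΔIEC against Bmi1ΔIEC had 0 of 8, beside 1.4%. The DKO differences from Bmi1ΔIEC were 0.73 for Ccl8 and 0.70 for Ccl4, and -0.79 for Ccl7 and -0.80 for Ccl28. From Mel18ΔIEC the DKO array differed by 0.74 in Ccl20, 0.68 in Ccl4 and -0.88 in Ccl28. Ccl6 was nearly level among the 3 arrays, with DKO at -0.09 from Bmi1ΔIEC and -0.10 from Mel18ΔIEC.

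Receptors of these ligands lay mostly near or under the floor. Counts past the rule, here and in the lists that follow, stand beside the shares of all genes compared. Lower were 2.86% on Bmi1ΔIEC, 2.5% on Mel18ΔIEC and 2.19% on DKO, and higher 5.76%, 3.15% and 2.13%. Among CC receptor genes, 12 had a probe set of their own, and 7 of them reached the floor in the Bmi1ΔIEC comparison. Ccr1, the receptor for Ccl3, Ccl6 and Ccl9, read 25.1 units on Bmi1ΔIEC, 39.6 on Mel18ΔIEC and 86.5 on DKO, against 56.6 on WT. It was the 1 of 7 receptors lower on Bmi1ΔIEC by the rule, with 0 higher, but its value there was under the floor, and with that value set to the floor the log2 difference was -0.76 and did not pass. Ccr2, the receptor for Ccl2 and Ccl7, read 42.4, 37.5 and 52.9 units against 50.3 on WT, with no pair 2-fold apart. Ccr7, which guides dendritic cells to lymph nodes, was the 1 of 7 receptors lower on Mel18ΔIEC, at 25.3 units against 52.7 on WT, and at -0.66 with the value under the floor set to the floor, which did not pass. Ccr6, the receptor for Ccl20, read 31.4, 33.7 and 35.3 units against 42.7 on WT, and Ccr10, a receptor for Ccl28, 34.5, 34.2 and 32.3 against 31.4. Ccr8 and Ccr9 were under the floor on all arrays. On DKO 0 of 6 receptors passed the rule.

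Of 11 other CC ligands, 8 had a probe set of their own and 4, 4 and 3 could be compared on Bmi1ΔIEC, Mel18ΔIEC and DKO. Ccl5, a T cell attractant made by T and NK cells, read 306 units on Bmi1ΔIEC, 130 on Mel18ΔIEC and 576 on DKO, against 271 on WT. It was lower on Mel18ΔIEC, at -1.06, and higher on DKO, at 1.09. Ccl27a, a ligand of CCR10 known from skin, read 51.4 units on Bmi1ΔIEC, 49.6 on Mel18ΔIEC and 16.6 on DKO, against 19.5 on WT, and was higher by the rule on both single-knockout arrays. Its WT value was under the floor, and set to the floor it gave differences of 0.62 and 0.57, which did not pass. That probe set is of a type that can match several transcripts, and close copies of Ccl27a exist, so its value is uncertain. Ccl17 and Ccl24 did not pass the rule.

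In the list of NF-kappa B inducers and feedback genes, which includes triggers of chemokine transcription, 3 of 19 were lower on Bmi1ΔIEC, 3 of 19 on Mel18ΔIEC and 0 of 20 on DKO, and none was higher on any. Il1b, which encodes interleukin 1 beta, read 96.2 units on Bmi1ΔIEC, 129 on Mel18ΔIEC and 928 on DKO, against 1161 on WT. Tnf read 53.1, 54.5 and 89.3 units against 136 on WT. Tnfaip3, a brake on NF-kappa B signalling, was lower on Bmi1ΔIEC at 655 units against 1326 on WT, and Nfkbie, an inhibitor subunit, on Mel18ΔIEC at 36.6 against 76.5. The list medians were -0.35, -0.42 and 0.01.

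Markers of the cells that make or answer these chemokines were read in the same arrays. In bulk RNA fewer cells of a type and less RNA per cell cannot be told apart. Macrophage and monocyte markers, 20 of 21 of which had a probe set of their own, were lower by the rule in 8 of 18 on Bmi1ΔIEC, 3 of 18 on Mel18ΔIEC and 0 of 18 on DKO, with medians of -0.77, -0.46 and 0.05. Among the 8, Mrc1 read 28.4 units on Bmi1ΔIEC, and with that value set to the floor its difference was -0.77, which did not pass. Their summed intensity was 11097 on Bmi1ΔIEC, 8991 on Mel18ΔIEC and 11888 on DKO, against 13225 on WT, and 15, 17 and 18 of the 20 reached the floor, against 18 on WT. Csf1r, the receptor that keeps macrophages alive, read 344, 526 and 1011 units against 866 on WT, and Itgam lay under the floor on all arrays. The sum is weighted by the brightest members, and these went different ways. Ctss, the brightest on every array, read 5131, 5388 and 4653 units against 4396 on WT, above WT on all 3. Cd14 read 1549, 756 and 722 units against 1199 on WT, above WT on Bmi1ΔIEC only. Cd74 read 3016, 827 and 2678 units against 4371 on WT. So Mel18ΔIEC was lowest by the sum and Bmi1ΔIEC by the median and the count. On DKO 0 of the 18 markers passed the rule, with 10 above WT and 8 under it, among these Cd14 at -0.73 and Cd74 at -0.71. Ccl2, Ccl7 and Ccl8 passed it there, Ccl2 only just at 2.01-fold. Whether the macrophage content bears on these chemokine values was not tested.

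Neutrophil markers were lower in 4 of 8 on Bmi1ΔIEC, 4 of 8 on Mel18ΔIEC and 0 of 8 on DKO, beside 2.86%, 2.5% and 2.19% of all genes. Their sum over 11 genes was 312 on Bmi1ΔIEC, 408 on Mel18ΔIEC and 2334 on DKO, against 2458 on WT. Fibroblast markers, from cells that can also release Ccl2 and Ccl7, were lower in 6 of 14 on Bmi1ΔIEC and 0 of 14 on Mel18ΔIEC and DKO. On DKO 1 of the 14, Pdgfrb, was higher. The fibroblast sums were 2456, 5252 and 7608 against 5147 on WT. T and NK cell markers were lower in 2 of 11 on Bmi1ΔIEC and 4 of 11 on Mel18ΔIEC, and on DKO 4 of 12 were higher, with sums over 14 genes of 875, 669 and 2393 against 1266 on WT. Endothelial sums lay between 321 and 361 units, and epithelial sums were 116935, 136115 and 158627 against 140316 on WT. B and plasma cell markers summed to 4827, 5572 and 6733 against 5850 on WT. Xbp1 alone read 3572, 4334 and 4368 units against 4557 on WT, and so was the largest part of each sum. On DKO 2 of 8 B and plasma cell markers, Jchain and Ighm, were higher by the rule and 0 lower. Small intestine markers, read for Ccl25, were higher in 2 of 7 on Bmi1ΔIEC, 2 of 7 on Mel18ΔIEC and 7 of 9 on DKO, with sums over 11 genes of 1643, 1406 and 4308 against 1014 on WT. Among the 7 on DKO, Slc10a2 read 8.47 units on WT, and with that value set to the floor its difference was 0.985, which did not pass. The genes higher on both single-knockout arrays were Fabp2 and Enpep. Enpep, an aminopeptidase, read 264, 81.2 and 1995 units against 29.9 on WT, and so was a large part of the DKO sum. The part of any of these cells in the chemokine values was not tested.

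**Figure D5:**
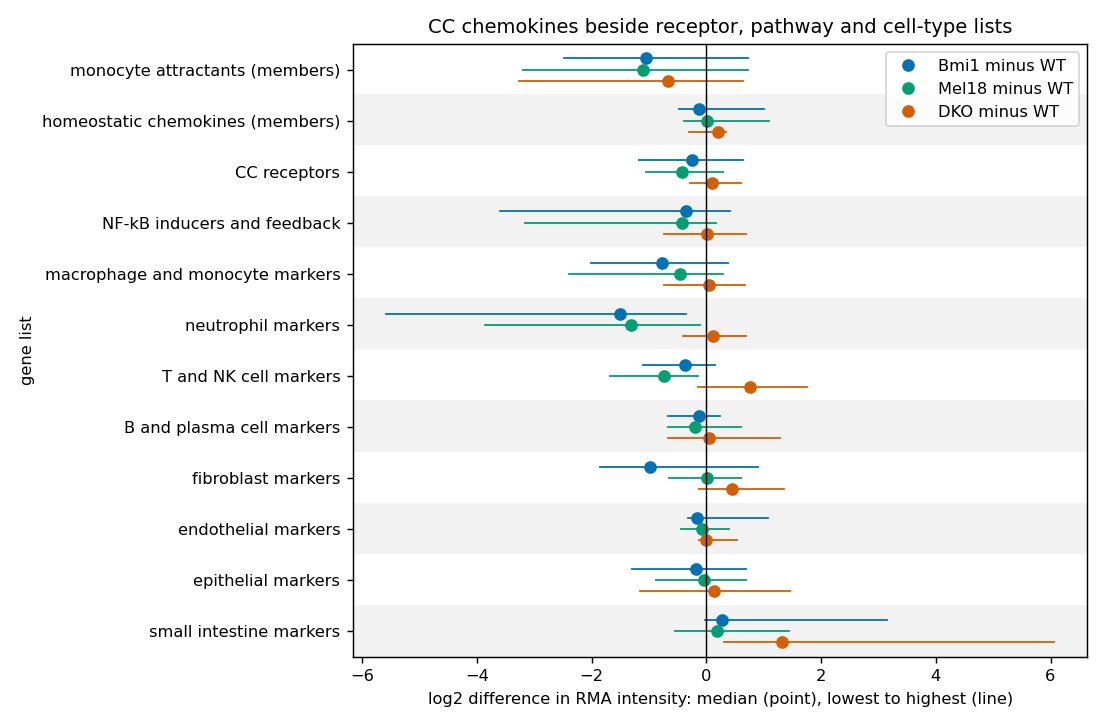
Log2 difference from WT (horizontal axis) of the monocyte attractants, the homeostatic chemokines and the receptor, pathway and cell-type lists, with the median as a point and the lowest to highest member as a line for each knockout-labelled array. On DKO the median is -0.68 for the attractants, 0.05 for the macrophage markers and 0.11 for the neutrophil markers.

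For the 4 chemokines that spanned at least 2-fold over the arrays, the genes with the nearest pattern were found by Euclidean distance of centred log2 values over the 4 arrays, among 11648 genes. With 4 points a close pattern is a description of these arrays only. Ccl2 lay nearest to Wfdc21, Ddah1 and Sulf2, at distances of 0.12 to 0.15. Wfdc21 read 13.4, 13.3 and 17.9 units against 37.3 on WT. Of the genes named here, Wfdc21, Clca3a2 and Trim10 reached the floor on WT only. They entered the search through that array alone, and their likeness rests on values under the floor. Ccl2 itself was under the floor on both single-knockout arrays. Ccl7 had no close match, and the nearest were Osmr, the oncostatin M receptor, at 0.65, Clca3a2 at 0.87 and the heat shock gene Hspa1a at 1.04. Osmr read 39.4 units on Bmi1ΔIEC, 35.8 on Mel18ΔIEC and 34.4 on DKO, against 203 on WT. Ccl8 lay nearest to Trim10 (0.21), Lbp (0.22), which encodes the lipopolysaccharide-binding protein, and Fgd3 (0.27). Lbp read 143, 176 and 274 units against 593 on WT. Ccl28 lay nearest to Syne2, Ergic1 and Fam174b, at 0.06 to 0.07, by its representing probe set. Its other probe sets spanned only 0.09 and 0.32 on the log2 scale, so by them Ccl28 would not have entered the search.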

How the data were processed

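Per the submitters' processing notes, the authors used Affymetrix Expression Console and RMA, with no version given. The deposited values are RMA intensities on a linear scale (3.25 to 22803), 1 array per genotype. Log2 was taken without a pseudocount, and no further scaling was applied. Joint or separate summarisation of the arrays is not stated.

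Of 45037 probe sets, 34945 had 1 gene symbol, 932 had several and 9160 were unnamed. Gene identifiers of 34741 matched the table of GRCm38.p6, from which symbols were updated. Comparisons used Python 3.11.15, numpy 2.4.6 and pandas 2.3.3. With 1 array per group no test exists, and the number of arrays limits precision.

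The 10 chemokines, the gene lists and the rules were chosen with earlier results of these data known. Named genes are the 10, list members past the rule, list-defining members and the ends of a list's range, and the 3 nearest patterns. The TATAA letters were added after the sequences were seen. The 8 alternatives covered probe sets, floor, scaling, fold rule and probe-set type.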

Additional observations from a re-analysis of the deposited data

Results flagged for a closer look

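Each label of a loss was read against WT and against the array labelled for the other loss alone, and for 3 of the 10 genes the values went opposite ways by at least 1.5-fold each. The share of all genes that would do so was not counted, so 3 of 10 cannot be called unusual. The Bmi1 transcript was not lower on the arrays labelled for its loss. Pcgf2 lay near the floor on all 4 and was lowest on WT, so the readings compare arrays by label. These differences rest on 1 array per genotype and were not tested. For a given gene both readings contain the same 4 arrays, so they are not separate observations.

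Ccl4 differed by -0.77 on Bmi1ΔIEC against WT, and by 0.68 on DKO against Mel18ΔIEC. For the Mel18 label the Ccl4 values were -0.76 (Mel18ΔIEC against WT) and 0.70 (DKO against Bmi1ΔIEC). Ccl28 differed by 1.00 on Bmi1ΔIEC against WT and by -0.88 on DKO against Mel18ΔIEC, and for the Mel18 label by 1.09 and -0.80. Its other probe sets did not show this, with differences of at most 0.32 in size between any arrays. Ccl8 differed by -1.52 on Mel18ΔIEC against WT and by 0.73 on DKO against Bmi1ΔIEC.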

How the results depend on the processing

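The 8 alternatives gave 246 values, of which 235 stayed within 1.5-fold of the value reported (for counts, within 1.5 times) and 11 moved, and no called direction turned. Many of the values could not change. Another floor, or leaving out probe sets that can match several transcripts, left each chemokine's log2 difference as it was. Centring the arrays left the gap of monocyte attractants minus homeostatic genes as it was. The 235 are therefore no measure of how firm the results are. Ccl7 and Ccl8 were lower by the rule on all 3 knockout-labelled arrays under all 8, and Ccl2 under all but the floor at percentile 75 (136 units), which it did not reach. With each array centred on its floor-passing genes Ccl4 was also lower on Bmi1ΔIEC, at -1.01, so that 4 chemokines were lower there. Under the 1.5-fold rule Ccl4 was also lower on both single-knockout arrays. The number of chemokines higher on Mel18ΔIEC, 1 as reported, was 0 with a gene's probe sets averaged and 0 with each array centred on its floor-passing genes, since Ccl28 dropped out. On Bmi1ΔIEC it was 0 as reported and 1 with arrays centred on their medians. Under the 1.5-fold rule it was 2 on Bmi1ΔIEC, 2 on Mel18ΔIEC and 1 on DKO. The gap of monocyte attractants minus homeostatic genes was -2.28 on Bmi1ΔIEC and -1.86 on Mel18ΔIEC with the floor at percentile 75, which leaves fewer genes, and otherwise kept its direction, down to -0.65, -0.77 and -0.55 on Bmi1ΔIEC, Mel18ΔIEC and DKO. With the mean over probe sets Ccl28 lay at 0.34 on Bmi1ΔIEC and 0.38 on Mel18ΔIEC, and Ccl25 at 0.32 on DKO. Of all genes, 8.61%, 5.65% and 4.32% passed the 2-fold rule on Bmi1ΔIEC, Mel18ΔIEC and DKO, and 25.4%, 18.1% and 12.7% the 1.5-fold rule. Genes higher on Bmi1ΔIEC numbered 687 of 11934 compared as reported, 440 of 7628 with the higher floor and 347 of 12003 with that centring. With that centring 561 were lower in place of 341. On Mel18ΔIEC these 2 alternatives gave 243 of 7407 and 234 of 11979 higher in place of 374 of 11862. The higher floor gave 195 of 7407 lower there in place of 296 of 11862. On DKO 259 of 11853 were lower as reported, 155 of 7159 with the higher floor and 169 of 10440 with the mean over probe sets. The higher floor compares fewer genes, so its smaller counts are not by themselves smaller shares. No paired analysis was possible because each group has 1 array. Dim signals such as Ccl2, Ccl3 and Ccl25 lie near background, where differences are not exact.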
